A study of Mus musculus with 6 samples.

Results

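The genes described here encode 9 cell-surface molecules with which blood cells sense, hold on to and leave their niches. They are the chemokine receptors Cxcr4, Ccr1, Ccr2 and Ccr7, the sphingosine 1-phosphate receptors S1pr1 and S1pr4, and the adhesion molecules Selplg, Cd44 and Esam. They were taken by gene symbol from the 18946 genes listed in either deposited table of the series, and all 9 were listed in both tables. RNA had been sequenced from BaF3, an interleukin-3-dependent mouse cell line that the labels call pro-B and leukaemic. The cells were grown in 10% serum with 2 ng/mL mouse interleukin-3, nucleofected with plasmid and sorted 24 h later. CTdel cells received pmax-Clover-CTdel, a mutated form of the Notch1 intracellular part (ICN) in a plasmid for the green fluorescent protein Clover. ICN cells received pmax-Clover-ICN, with the form not so mutated, and con cells received pmax-Clover alone. What CTdel removes, the species of ICN and the sorting gate are not stated by the labels. All groups carry a Clover plasmid and no group has an unrelated insert, so effects of the insert and of a longer plasmid cannot be told apart. There are 2 libraries a group, replicates 1 and 2. The labels do not say whether a group's libraries are separate cultures, and the p-values given here then reflect only how these libraries differ, which may be technical.

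Chemokine receptors are G-protein-coupled receptors that steer cells along gradients of small secreted proteins. CXCR4 holds haematopoietic and B-lineage precursors in the bone marrow through its ligand CXCL12. CCR7 guides lymphocytes into lymph nodes, and CCR1 and CCR2 draw myeloid cells to inflamed tissue. Sphingosine 1-phosphate is a lipid that is high in blood and low in tissue, and S1PR1 lets lymphocytes follow it out of lymphoid organs, while S1PR4 is found mainly on haematopoietic cells. PSGL-1, the product of Selplg, binds selectins, CD44 binds hyaluronan, and ESAM is a junction protein of endothelium and platelets that is also carried by haematopoietic stem cells. Notch receptors release their intracellular part to act on genes in the nucleus together with the DNA-binding protein RBPJ.

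The RNA values are FPKM, fragments scaled to transcript length and to the mapped fragments of the library, as the authors computed them. Each library's FPKM add up to 489693 to 507894. How many reads were counted is unknown, but the size of the smallest steps in the values of short RNA genes gave relative depths of 0.962 to 1.08, with con replicate 1 as 1. Notch1, the transfected gene, had FPKM 84.9 and 25.4 in CTdel replicates 1 and 2, FPKM 190 and 888 in ICN replicates and FPKM 0.89 and 1.72 in con replicates, and reads of the plasmid and of the cells' own gene are not separated. The markers that define the B lineage were nearly absent: 8 of 10 stayed below FPKM 1 in every library that listed them, among them Pax5 and Ebf1. Cd79b alone exceeded FPKM 3.15, at 8.3 and 13.4 in CTdel, 6.36 and 4.34 in ICN and 3.62 and 4.32 in con. Il3ra, the receptor chain specific for interleukin-3, lay between FPKM 19.0 and 35.1 in all libraries. Lists of 6 T-cell and 5 fibroblast markers summed to at most FPKM 3.01 and 0.75 in any library, and 4 natural killer cell markers to at most 0.02.

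Changes were tested as differences of log2(FPKM + 1) with limma, over all 11050 genes listed in both tables with FPKM 1 or more in 2 or more libraries. Group and table were the terms of the model, so each change is taken within a replicate number, and a gene passed at a Benjamini-Hochberg adjusted p under 0.05. Of the 9 receptors 8 were tested, and S1pr1 was too low. Against con, 1 receptor passed in CTdel, Esam, which rose. Esam lay below FPKM 1 in con and entered the test only through CTdel and ICN libraries, so its calls support nothing. The background was 1.41% of genes called in either direction and 1.3% called higher. In ICN 0 receptors passed in limma's test, beside 0.0362% of genes called, and between CTdel and ICN 0 passed, beside 0.0181%. In both forms together against con 1 passed, again Esam, with 1.11% of genes called in either direction and 1.01% called higher. At an unadjusted p under 0.05 stood 5 of the 8 receptors in CTdel against con, beside 11.8% of all tested genes, and 2 in ICN against con, beside 15.0%. The same count was 3 in CTdel against ICN, beside 7.13%, and 5 in both forms together, beside 15.4%. Each of these counts includes Esam, whose p-values support nothing. The receptors were chosen with earlier results of these data known, so these counts are a description and no test of the receptors as a set.

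**Figure D1:**
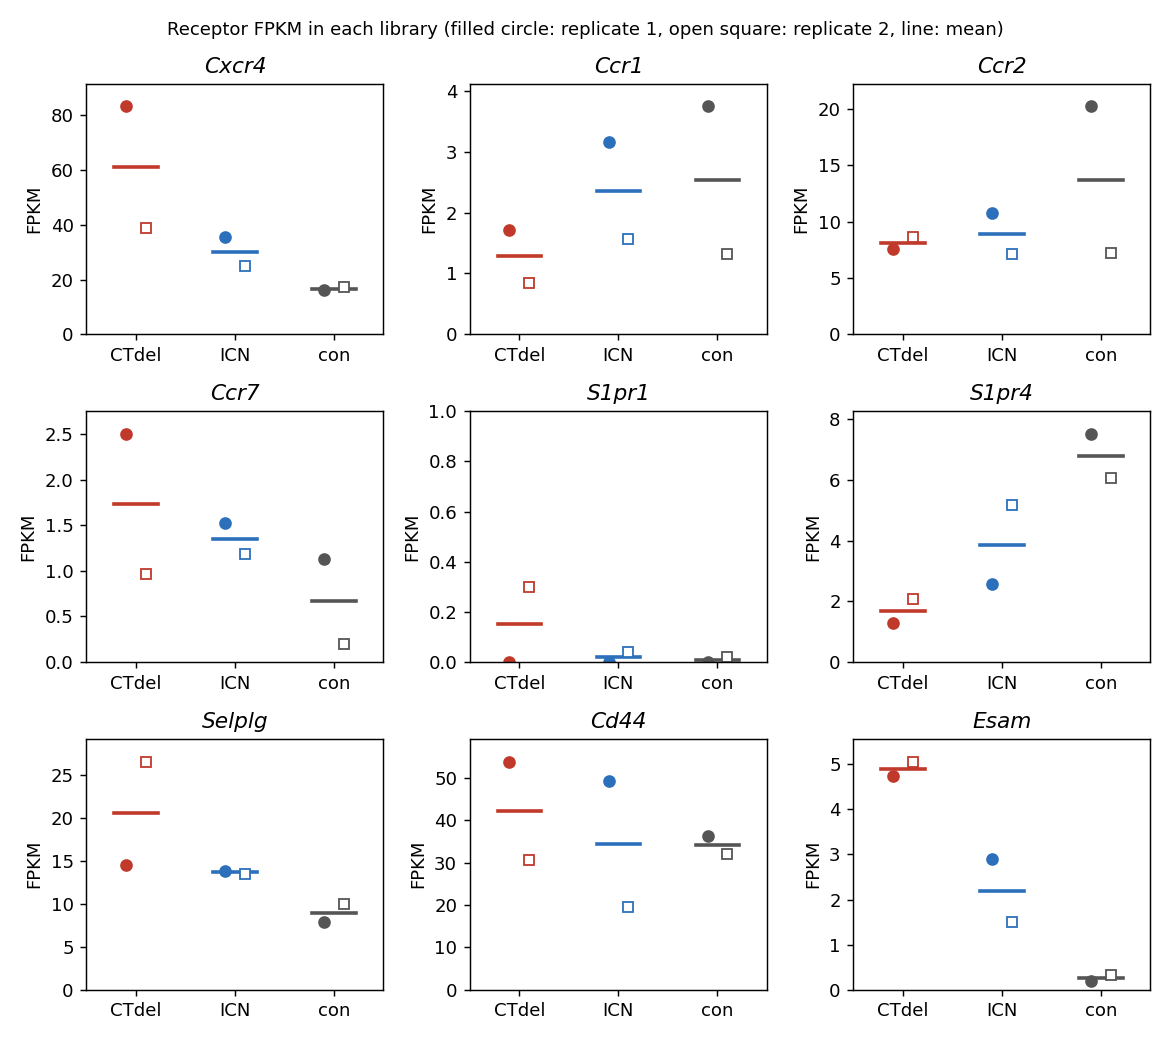
FPKM (vertical axes, linear, from 0) of the 9 receptors in CTdel, ICN and con cells, with 1 panel a gene, a filled circle for replicate 1, an open square for replicate 2 and a line for the mean of both. In Cxcr4, Selplg and Esam every CTdel library lies above every ICN library and every ICN library above both con libraries, and in S1pr4 the order is the reverse. The share of all tested genes with such an order was not computed.

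The groups did not overlap in 4 receptors in CTdel against con, with Cxcr4, Selplg and Esam higher and S1pr4 lower. The same 4 receptors did not overlap between CTdel and ICN, in the same directions. Among all tested genes, 41.8% had groups that did not overlap in CTdel against con and 40.6% in CTdel against ICN, so 4 of 8 is near the background. In ICN against con 5 receptors did not overlap, these 4 and Ccr7, against 42.3% of all tested genes. By direction, 4 of 8 were higher and 1 of 8 lower in ICN, beside 22.7% and 19.6% of all tested genes, and 3 of 8 were higher and 1 of 8 lower in CTdel, beside 18.3% and 23.5%. The values for CTdel against ICN were 3 of 8 and 1 of 8, beside 15.6% and 25%. Esam is counted as higher in each of these comparisons, though it entered the test only through CTdel and ICN libraries. The share of all tested genes with all 3 groups apart and in order was not computed, so such an order is a description only. CTdel and ICN share their con libraries, so their changes against con are not independent of each other.

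The promoter windows of the most abundant chemokine receptor and of the sphingosine receptor are shown because these genes lay on opposite sides of con. They come from RefSeq for GRCm38.p6, the assembly behind the mm10 build that the submitters' processing notes name, and run from 250 bases before to 50 bases after the annotated start, 5′ to 3′ on the gene's strand. Capitals mark CpG, the dinucleotide that can be methylated in mammals. The Cxcr4 window is chr1:128592250-128592549 on the minus strand and the S1pr4 window is chr10:81500088-81500387 on the minus strand.
Cxcr4: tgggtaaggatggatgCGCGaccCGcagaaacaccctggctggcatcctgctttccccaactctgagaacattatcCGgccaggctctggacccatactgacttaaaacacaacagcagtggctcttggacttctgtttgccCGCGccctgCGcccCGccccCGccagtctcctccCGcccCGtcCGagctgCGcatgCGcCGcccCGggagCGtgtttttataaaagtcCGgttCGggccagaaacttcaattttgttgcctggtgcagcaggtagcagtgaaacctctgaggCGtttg
S1pr4: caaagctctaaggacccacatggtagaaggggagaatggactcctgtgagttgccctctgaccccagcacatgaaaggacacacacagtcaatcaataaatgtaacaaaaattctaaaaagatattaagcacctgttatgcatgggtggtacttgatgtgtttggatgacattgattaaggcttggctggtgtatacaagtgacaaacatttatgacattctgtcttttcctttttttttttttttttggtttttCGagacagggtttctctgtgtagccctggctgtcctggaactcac
The Cxcr4 window held 20 CpG, more than 73.5% of the 32851 mouse promoter windows, and was 59.3% G and C. The S1pr4 window held 1 CpG, more than 5.43% of windows, and was 41% G and C. Windows of Ccr1 and Ccr2 also held 1 CpG each, and that of Cd44 held 6, beside a median of 7 over all windows. The Ccr2 window, 124101933 to 124102232, lies inside the gene, which begins at 124101918, so it does not cover that start. The letters GTGGGAA, a core bound by RBPJ, were in 0 of the 5 receptor windows on either strand and in 6.38% of all windows. The FOXO letters TGTTTAC were in 0 of 5 and in 3.65% of all windows. The kappa B motif, which can share bases with the RBPJ letters, was in 1 of 5, that of Ccr1 at 74 bases before the start (position -74), and in 8.46% of all windows. A match is a description of these letters only. Windows of Ccr7, S1pr1, Selplg and Esam were not used here.

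Among the chemokine receptors, Cxcr4 was the most abundant. Its gene (Gene ID 12767) has 2 exons in the listed transcript and lies on chromosome 1 at 128588199 to 128592299 in GRCm38. Cxcr4 had FPKM 83.2 and 39.0 in CTdel replicates 1 and 2, 35.4 and 24.8 in ICN and 16.2 and 17.2 in con. Every CTdel library lay above every ICN library and every ICN library above con, with the con libraries close to each other. The means were 61.1 ± 31.3 in CTdel, 30.1 ± 7.49 in ICN and 16.7 ± 0.679 in con (SD, n = 2 each), so the ratio of means to con was 3.65 in CTdel and 1.80 in ICN. The log2 change against con was 1.71 ± 0.306 in CTdel (SE; limma adjusted p = 0.0820) and 0.79 ± 0.306 in ICN (adjusted p = 0.322), and neither passed. CTdel minus ICN was 0.92, with a 95% interval from 0.16 to 1.67 and an adjusted p of 0.663. With 1 library left out the log2 change in CTdel against con ran from 1.28 without CTdel replicate 1 to 2.14 without CTdel replicate 2. It stayed 1.71 without ICN replicate 1 or 2, so the call gained there reflects only the estimated spread of the libraries. A call was also gained without con replicate 2, where the log2 change was 2.14 and con was left with 1 library. In ICN against con the log2 change ran from 0.36 without con replicate 1 to 1.22 without con replicate 2.

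Ccr7 was low throughout. This receptor (Gene ID 12775, chromosome 11, 99144199 to 99155077, 3 exons) had FPKM 2.5 and 0.97 in CTdel, 1.52 and 1.18 in ICN and 1.13 and 0.2 in con. Both ICN libraries lay above both con libraries, whereas CTdel replicate 2 lay below con replicate 1. The log2 change was 0.72 in each CTdel replicate taken alone and in their mean (adjusted p = 0.402), and 0.55 in ICN (adjusted p = 0.399), where it was 0.24 without ICN replicate 2 and 0.86 without ICN replicate 1. Only 1 of its con libraries reached FPKM 1.

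Ccr1 and Ccr2 did not pass in any comparison, and their con libraries differed widely. Ccr2 (Gene ID 12772, chromosome 9, 124101918 to 124109140, 3 exons), a receptor for the monocyte attractant CCL2, had FPKM 7.58 and 8.63 in CTdel, 10.8 and 7.1 in ICN and 20.2 and 7.2 in con. Con replicate 1 stood above the other libraries, which spanned 7.1 to 10.8. In CTdel the log2 change was -1.31 in replicate 1 and 0.23 in replicate 2, with a mean of -0.54 (adjusted p = 0.684), and the sign turned without con replicate 1 (0.06) or CTdel replicate 1 (0.02). Ccr1 (Gene ID 12768, chromosome 9, 123962126 to 123968692, 2 exons) binds CCL3 and CCL5, among others. Its FPKM was 1.71 and 0.85 in CTdel, 3.15 and 1.56 in ICN and 3.74 and 1.32 in con. Within each replicate number CTdel had the lowest Ccr1, with log2 changes against con of -0.81 and -0.33 and a mean of -0.57 (adjusted p = 0.462). Both genes sit in a cluster of chemokine receptor genes on chromosome 9, where the neighbours Ccr3 and Ccr1l1, between Ccr1 and Ccr2, stayed at or below FPKM 0.15.

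The sphingosine 1-phosphate receptors were S1pr4, which had the lowest change of the 8 tested receptors against con, and S1pr1, which was close to 0. S1pr4 (Gene ID 13611, chromosome 10, 81497745 to 81500137) has a single exon, and its product couples to G proteins that act on cell shape and movement. It had FPKM 1.28 and 2.07 in CTdel, 2.56 and 5.18 in ICN and 7.51 and 6.07 in con. The 3 groups did not overlap, with CTdel lowest and con highest. The means were 1.68 ± 0.559 in CTdel, 3.87 ± 1.85 in ICN and 6.79 ± 1.02 in con (SD, n = 2 each), a ratio of means to con of 0.247 in CTdel and 0.570 in ICN. The log2 change against con was -1.55 ± 0.306 in CTdel (SE; adjusted p = 0.101) and -0.73 ± 0.306 in ICN (adjusted p = 0.343), and CTdel minus ICN was -0.83 with a 95% interval from -1.58 to -0.07 (adjusted p = 0.678). The CTdel value stayed -1.55 without ICN replicate 1 or 2, so a call gained there reflects only the estimated spread of the libraries. With 1 library left out the ICN value ran from -1.17 without con replicate 2 to -0.29 without con replicate 1. In bulk RNA, fewer cells with a transcript and less transcript per cell cannot be told apart.

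S1pr1 (Gene ID 13609, chromosome 3, 115710433 to 115715055, 2 exons) was listed at 0 in all 3 libraries of replicate 1, and at 0.3 in CTdel, 0.04 in ICN and 0.02 in con of replicate 2. The values of con and ICN replicate 2 lie near the smallest value above 0 in the tables, 0.01, and no fold is given. Klf2, a transcription factor that switches on S1pr1 in T cells, was also at or below FPKM 0.36 in all libraries. Cd69, whose product removes S1PR1 from the surface of lymphocytes, had FPKM 52.7 and 7.08 in CTdel, 43.8 and 11.5 in ICN and 44.6 and 8.02 in con, so it differed by replicate number more than by group. Both genes are named outside the rule for named genes, after a look at their values.

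**Figure D2:**
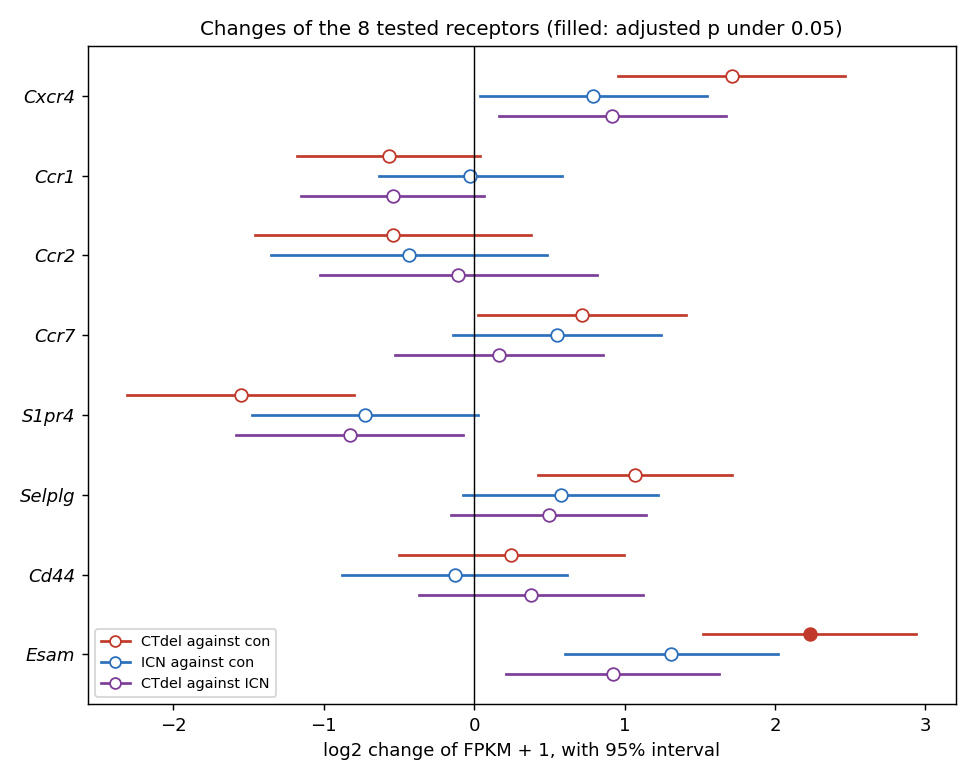
Log2 change of FPKM + 1 (horizontal axis) of the 8 tested receptors for CTdel against con, ICN against con and CTdel against ICN, with limma's estimate as a point and its 95% interval as a line. Esam in CTdel against con, at 2.23, is the filled point, and all others missed the threshold. Esam entered the test only through CTdel and ICN libraries, so its call supports nothing.

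Among the adhesion molecules, Esam had the largest change of the 8 tested receptors against con, in CTdel and in ICN. Its gene (Gene ID 69524, chromosome 9, 37528089 to 37538319, 7 exons) encodes an immunoglobulin-type protein of tight junctions. Esam had FPKM 4.75 and 5.06 in CTdel, 2.89 and 1.5 in ICN and 0.2 and 0.32 in con. The CTdel libraries were close to each other, and every library of either form lay above both con libraries. The mean of 4.91 ± 0.219 in CTdel and 2.20 ± 0.983 in ICN against 0.26 ± 0.0849 in con (SD, n = 2 each) made ratios to con of 18.9 and 8.44. Esam rose by 2.23 ± 0.287 on the log2 scale in CTdel (SE; limma adjusted p = 0.0304) and by 1.77 ± 0.249 in both forms together (adjusted p = 0.0436). In ICN alone the change was 1.31 ± 0.287 (adjusted p = 0.175), and CTdel minus ICN was 0.92 with a 95% interval from 0.21 to 1.63 (adjusted p = 0.658). Con lay below FPKM 1, so Esam entered the test only through libraries with an ICN or CTdel plasmid, and a gene that enters this way had to differ. Its p-values and calls, lost or gained, therefore support nothing. The call in CTdel was lost without con replicate 1 (adjusted p = 0.0696), without CTdel replicate 2 (0.0873), with quantile normalization (0.0635) and with no filter on low genes (0.167), and the log2 change was 3.82 with a pseudocount of 0.1. In both forms together it was lost without con replicate 1 (0.105) or 2 (0.0797), with quantile normalization (0.0977) and with no filter (0.199), and in ICN alone Esam passed without ICN replicate 2 (0.0465).

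Esam is known as an endothelial gene, so the endothelial markers were set beside it. Cdh5, Kdr and Vwf, which define endothelium, stayed at or below FPKM 0.07 in every library that listed them. Tek reached at most 0.93, in ICN replicate 2, and Emcn was listed in neither table. Pecam1, which leukocytes also carry, made up most of the summed marker level. That sum was 43.5 to 46.8 in CTdel, 40.6 to 48.9 in ICN and 51.8 to 62.9 in con. An endothelial source of Esam was not tested. Of 12 other junction and transmigration genes in the list 4 were tested and 0 passed in limma's test, with 0 at an unadjusted p under 0.05 in CTdel against con and 1 in ICN against con, beside 11.8% and 15.0% of all tested genes. F11r, the junctional molecule JAM-A, had FPKM 5.15 and 3.79 in CTdel, 5.47 and 6.71 in ICN and 3.22 and 2.07 in con (log2 change in CTdel 0.59, adjusted p = 0.467). Cd99l2, which helps leukocytes cross vessel walls, had a log2 change in CTdel of -0.55 (adjusted p = 0.435).

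Selplg (Gene ID 20345, chromosome 5, 113817798 to 113832528, 2 exons) encodes the mucin that lets leukocytes roll on selectins. Its FPKM was 14.6 and 26.6 in CTdel, 13.9 and 13.5 in ICN and 7.9 and 9.95 in con. The 3 groups did not overlap, though CTdel replicate 1 lay just above both ICN libraries. The ratio of means to con was 2.31 in CTdel and 1.54 in ICN. The log2 change against con was 1.07 ± 0.262 in CTdel (SE; adjusted p = 0.162) and 0.57 ± 0.262 in ICN (adjusted p = 0.366). The CTdel value stayed 1.07 without ICN replicate 1 or 2, so a call gained there reflects only the estimated spread of the libraries. The ICN value was 0.28 without ICN replicate 1 and 0.87 without ICN replicate 2.

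Cd44 (Gene ID 12505, chromosome 2, 102811141 to 102901669) was the most abundant receptor in con and did not pass in any comparison. The tables give 1 value for 6 listed transcripts, of 9 to 19 exons, so its splice forms are not separated. A small nuclear RNA gene, Gm23731, overlaps it on the opposite strand. Cd44 had FPKM 53.9 and 30.7 in CTdel, 49.4 and 19.4 in ICN and 36.3 and 32.0 in con. Replicate 1 of both forms lay above con and replicate 2 of both forms below it. The log2 change was 0.25 in CTdel, with a 95% interval from -0.50 to 0.99 (adjusted p = 0.840), and -0.13 in ICN, with one from -0.87 to 0.62 (adjusted p = 0.855). Without con replicate 1 the CTdel value was -0.19, and without con replicate 2 or ICN replicate 2 the ICN value was 0.31 or 0.28.

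**Figure D3:**
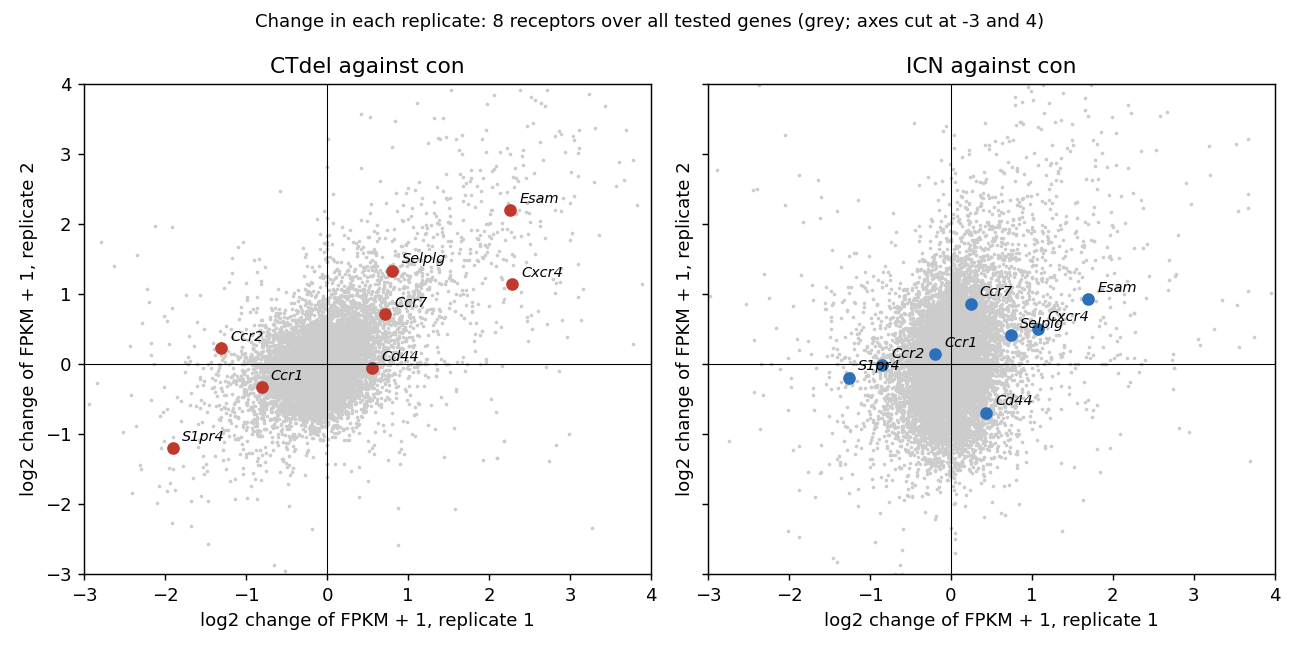
Log2 change of FPKM + 1 against con in replicate 1 (horizontal) and replicate 2 (vertical), for CTdel on the left and ICN on the right, with the 8 tested receptors as named points over all 11050 tested genes in grey; axes end at -3 and 4. In CTdel, Esam (2.26 and 2.20), Cxcr4 (2.29 and 1.13) and Selplg (0.81 and 1.33) lie in the upper right and S1pr4 (-1.90 and -1.20) in the lower left.

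The replicates agreed in sign for 6 of the 8 tested receptors in CTdel against con, Ccr2 and Cd44 being the exceptions. They agreed for 6 in ICN against con, where Ccr1 and Cd44 were the exceptions. The share of all tested genes with such agreement was not computed, so it does not show that the receptors were more reproducible than other genes. Over the 8 receptors the median log2 change was 0.48 in CTdel, 0.26 in ICN and 0.27 for CTdel minus ICN, beside -0.06, 0.00 and -0.04 over all tested genes. In CTdel 5 receptors had a positive change and 3 a negative one, with a range from -1.55 to 2.23, beside 42.1% of all tested genes with a positive change. In ICN 4 were positive and 4 negative, from -0.73 to 1.31, beside 50.1% of all tested genes with a positive change. The receptors were chosen with earlier results of these data known, so these medians and counts are a description only. They include Esam, which entered the test only through CTdel and ICN libraries.

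The order of the receptors' levels, in FPKM and so per length, differed by group. In con the means ran from Cd44 (34.1) through Cxcr4 (16.7), Ccr2 (13.7), Selplg (8.93), S1pr4 (6.79), Ccr1 (2.53), Ccr7 (0.665) and Esam (0.26) to S1pr1 (0.01). Neighbours whose con libraries overlapped were Cxcr4 and Ccr2, Ccr2 and Selplg, and Ccr7 and Esam. In CTdel the order was Cxcr4, Cd44, Selplg, Ccr2, Esam, Ccr7, S1pr4, Ccr1 and S1pr1, and the overlapping neighbours were Cxcr4 and Cd44, Ccr7 and S1pr4, and S1pr4 and Ccr1. Cxcr4 was 1.55 and 1.27 times Cd44 in the same CTdel library, 0.718 and 1.28 times in ICN and 0.448 and 0.537 times in con. S1pr4 was 0.269 and 0.409 times Esam in CTdel, 0.886 and 3.45 times in ICN and 37.6 and 19.0 times in con. This pair has the lowest and the highest change against con, so its ratios had to differ. In con they divide by Esam at FPKM 0.2 and 0.32.

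Marker levels of other cell types moved with some of these groups. The summed B-lineage markers were 9.42 to 18.2 in CTdel, 7.38 to 8.15 in ICN and 3.79 to 5.59 in con, mostly Cd79b. The 10 macrophage and granulocyte markers summed to 75.0 to 82.1 in CTdel, 51.1 to 86.4 in ICN and 78.4 to 112 in con, with Cd14 and Elane at or below 0.06. Adgre1, an adhesion-type receptor used as a macrophage marker, made up much of that sum, at FPKM 61.8 and 52.0 in CTdel, 57.4 and 21.5 in ICN and 60.8 and 33.2 in con. S100a9, a granulocyte protein, had FPKM 3.84 and 11.4 in CTdel, 11.5 and 17.7 in ICN and 7.84 and 46.4 in con, and its partner S100a8 had FPKM 2.92 and 6.84 in CTdel, 6.87 and 9.52 in ICN and 7.64 and 28.8 in con. Both were highest in con replicate 2, so members of the list differed in direction. Within that list Csf1r, the receptor of the macrophage growth factor, had FPKM 7.96 and 1.72 in CTdel, 3.34 and 0.1 in ICN and 0.05 and 0.01 in con. The mast cell and basophil markers summed to 1.64 to 4.56 in CTdel, 2.34 to 10.2 in ICN and 6.14 to 26.8 in con, nearly all of it Cpa3, the mast cell carboxypeptidase. Cpa3 had FPKM 4.56 and 1.64 in CTdel, 10.1 and 2.34 in ICN and 26.7 and 6.14 in con, and fell by 1.88 on the log2 scale in CTdel (adjusted p = 0.0437). That call was lost without con replicate 1 (0.117), con replicate 2 (0.0521) or CTdel replicate 1 (0.237) and under 4 other alternatives (0.0505 to 0.446). The erythroid and megakaryocyte markers summed to 134 to 149 in CTdel, 81.2 to 113 in ICN and 153 to 197 in con. The part of these markers in the receptors' changes was not tested.

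The machinery around the receptors was read from 7 lists with 130 genes, of which 121 were listed in a table and 71 were tested. In CTdel against con 2 of the 71 rose and 0 fell, beside 1.3% of all tested genes called higher and 0.109% called lower, and in both forms together the same 2 rose, beside 1.01% called higher. At an unadjusted p under 0.05 stood 20 of 71 in CTdel against con, beside 11.8% of all tested genes. In ICN against con 0 of 71 passed in limma's test, with 18 at an unadjusted p under 0.05, beside 15.0% of all tested genes, and in CTdel against ICN 0, with 7, which is near the 7.13% of all tested genes. The median log2 change of the 71 was 0.07 in CTdel and -0.02 in ICN, beside -0.06 and 0.00 over all tested genes. Of the 71, Ccl3, Mmp9, Hyal1 and Jam3 lay below FPKM 1 in con and entered the test only through CTdel and ICN libraries. Their p-values support nothing, though they are part of these counts. The lists were also chosen with earlier results known, so these counts, and those of each list, are a description only.

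**Figure D4:**
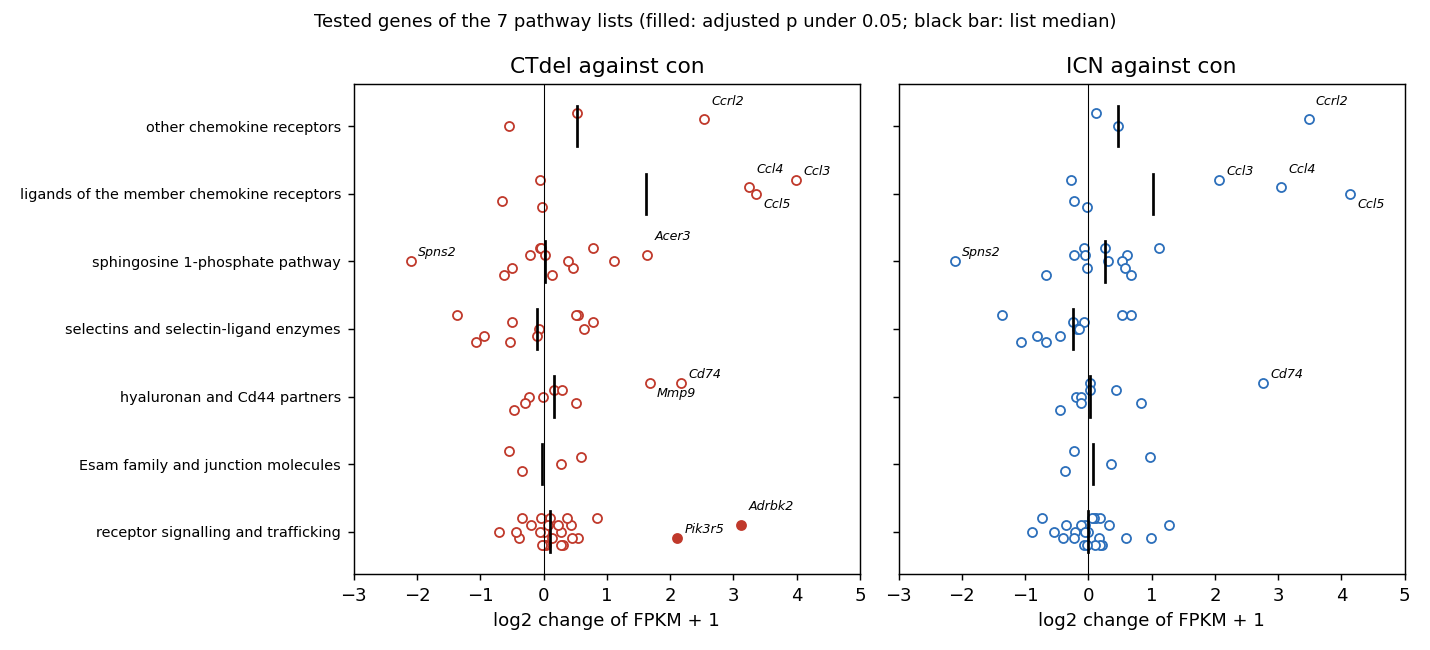
Log2 change of FPKM + 1 (horizontal axis) against con of the 71 tested genes of the 7 pathway lists, for CTdel on the left and ICN on the right, with a black bar at each list's median. Adrbk2 (3.13) and Pik3r5 (2.12) in CTdel are the filled points, which passed the threshold.

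Both genes that rose act directly below G-protein-coupled receptors. Adrbk2, now named Grk3, encodes a kinase that phosphorylates receptors in use and so ends their signal, the human CXCR4 among them. It had FPKM 63.8 and 49.2 in CTdel, 22.8 and 9.52 in ICN and 6.79 and 4.48 in con. The groups did not overlap, and the log2 change was 3.13 ± 0.262 in CTdel (SE; adjusted p = 0.017), 1.28 ± 0.262 in ICN (adjusted p = 0.169) and 2.20 in both forms together (adjusted p = 0.0272). Its call in CTdel was lost only with no filter on low genes (0.126) among the 11 alternatives, and in both forms also without con replicate 1 (0.0594) or 2 (0.0550). With 1 library left out the change of Adrbk2 ran from 0.91 to 1.65 in ICN and from 1.48 to 2.22 in CTdel against ICN. Pik3r5, the p101 subunit through which G proteins switch on phosphoinositide 3-kinase gamma, had FPKM 22.9 and 22.8 in CTdel, 13.1 and 7.54 in ICN and 5.39 and 3.73 in con. It rose by 2.12 ± 0.243 in CTdel (SE; adjusted p = 0.0261) and by 1.56 in both forms (adjusted p = 0.0404), and its change was 0.998 in ICN (adjusted p = 0.201). In CTdel that call was lost without con replicate 1 (0.0574), con replicate 2 (0.0560) or CTdel replicate 2 (0.0999), in both forms without con replicate 1 (0.0905) or 2 (0.120), in both comparisons with no filter on low genes (0.154 in CTdel and 0.202 in both forms), and in both forms with quantile normalization (0.0561). In CTdel against ICN the change of Pik3r5 ran from 0.83 to 1.40 with 1 library left out. The list of 32 signalling and trafficking genes that holds them had 25 tested, with a median log2 change in CTdel of 0.10, against -0.06 over all tested genes.

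Chemokine receptors outside the described genes were few in these cells: of 20 in the list 3 were tested, Cxcr2, Ccr4 and Ccrl2, and 0 passed in limma's test, with 2 at an unadjusted p under 0.05 in CTdel against con (11.8% of all tested genes). Ccrl2, an atypical receptor that binds chemerin without signalling, had FPKM 36.1 and 11.5 in CTdel, 31.9 and 51.5 in ICN and 4.01 and 1.76 in con. Its log2 change in both forms together was 3.01 (adjusted p = 0.0505, and 0.0404 in a model of groups alone). There Ccrl2 passed in 6 of the 11 alternatives and missed the threshold in the rest. In CTdel its log2 change was 2.53 (adjusted p = 0.109), which ran from 1.79 to 3.27 with 1 library left out. Cxcr2, a receptor of neutrophils, had a log2 change of -0.54 in CTdel (adjusted p = 0.366) and 0.47 in ICN (adjusted p = 0.342). CTdel minus ICN, where its p was smallest, was -1.01 (limma adjusted p = 0.377).

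Of 13 ligands of the described chemokine receptors, the cytokine Mif among them, 6 were tested and 0 passed in limma's test. At an unadjusted p under 0.05 in CTdel against con stood 3, Ccl3, Ccl4 and Ccl5, beside 11.8% of all tested genes. Ccl3 lay at FPKM 0.95 and 0.57 in con, so it entered the test only through CTdel and ICN libraries. Its p-values therefore support nothing. Ccl5, a ligand of CCR1, had FPKM 756 and 528 in CTdel, 725 and 1608 in ICN and 198 and 18.1 in con, so con replicate 1 was far above con replicate 2 (log2 change in CTdel 3.36, adjusted p = 0.231). With 1 library left out the CTdel change of Ccl5 ran from 1.51 to 5.21. Ccl4 had FPKM 71.5 and 2.57 in CTdel, 25.1 and 6.4 in ICN and 1.06 and 0.38 in con (log2 change in CTdel 3.25, adjusted p = 0.171). That change ran from 1.68 to 4.83 with 1 library left out. Both lay above con in every library of either form.

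In the sphingosine 1-phosphate pathway 13 of 20 genes were tested and 0 passed in limma's test, with 5 at an unadjusted p under 0.05 in CTdel against con (11.8% of all tested genes). Spns2, the transporter that exports sphingosine 1-phosphate, had FPKM 32.3 and 36.3 in CTdel, 46.4 and 24.5 in ICN and 124 and 179 in con. Every library of either form was far below con. The log2 change was -2.09 in CTdel (adjusted p = 0.0712, and 0.0415 in a model of groups alone) and -2.11 in ICN (adjusted p = 0.144). In CTdel Spns2 passed in 3 of the 11 alternatives and missed the threshold in the rest. Acer3, a ceramidase that frees sphingosine from ceramide, had a log2 change of 1.64 in each CTdel replicate (adjusted p = 0.109). With 1 library left out the CTdel change ran from -2.54 to -1.65 for Spns2 and from 1.35 to 1.93 for Acer3.

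Selectins and the enzymes that build their ligands had 11 of 16 tested and 0 passed in limma's test, with 4 at an unadjusted p under 0.05 in CTdel against con (11.8% of all tested genes). Gcnt1, the enzyme that starts the branched sugars that PSGL-1 needs to bind P-selectin, had FPKM 23.9 and 19.1 in CTdel, 36.0 and 22.3 in ICN and 61.4 and 34.2 in con (log2 change in CTdel -1.07, adjusted p = 0.112). Podxl, a sialomucin, had a log2 change in CTdel of -1.37 (adjusted p = 0.150). Both lay below con in CTdel, while Selplg itself lay above it. With 1 library left out the CTdel change ran from -1.29 to -0.85 for Gcnt1 and from -1.74 to -1.01 for Podxl.

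Of 17 hyaluronan and CD44 partner genes 9 were tested and 0 passed in limma's test, with 2 at an unadjusted p under 0.05 in CTdel against con (11.8% of all tested genes). Mmp9, a secreted protease that can dock on CD44, had FPKM 4.29 and 5.7 in CTdel, 1.02 and 0.78 in ICN and 0.98 and 0.75 in con (log2 change in CTdel 1.68, adjusted p = 0.0501, and 0.0350 in a model of groups alone). The CTdel libraries stood apart from the other 4, which lay between 0.75 and 1.02. Like Esam, Mmp9 lay below FPKM 1 in con and entered the test only through CTdel and ICN libraries. It therefore had to differ, and its p-values and the call it gained support nothing. Cd74, which forms a receptor for the cytokine MIF together with CD44, had FPKM 47.0 and 23.0 in CTdel, 33.4 and 74.7 in ICN and 7.62 and 5.6 in con (log2 change in CTdel 2.17, adjusted p = 0.141). With 1 library left out the CTdel change ran from 1.42 to 1.94 for Mmp9 and from 1.48 to 2.86 for Cd74.

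The tested genes whose pattern was most like the leading receptor of each class were found by Pearson correlation of log2(FPKM + 1) over the 6 libraries after the mean of each table was taken off. For Cxcr4 these were Nlrp3 (r = 0.998), Slc26a2 (0.997) and Smap2 (0.997). Nlrp3, an inflammasome sensor, had FPKM 9.25 and 1.84 in CTdel, 2.94 and 0.67 in ICN and 0.38 and 0.1 in con. Like Esam, Nlrp3 lay below FPKM 1 in con and was among the tested genes only through CTdel and ICN libraries, so it had to differ from con. S1pr4 was most like Wwp1 (0.999), Ppp1r8 (0.998) and Abhd17b (0.995), and Cd44 most like Tmem14c (0.998), Mphosph6 (0.998) and Tarbp2 (0.998). The points are the 6 libraries themselves, which the genes share, and the most alike were picked from 11050 genes, so no p is given.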

How the data were processed

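Per the labels' protocols, a kit for polyadenylated RNA (MGIEasy) was used. The authors deposited FPKM for each gene and library, with a separate table for each replicate number. The submitters' processing notes name RSEM, Bowtie2 and HISAT2, and mm10 beside hg19, without saying what each was used for or in which version. The tables listed 17877 and 17868 genes, 16799 of them in both. The first held 341 genes at 0 in all its libraries and the second 0, so they were not filtered alike. Date-like text stood in place of 26 symbols and was restored by Gene ID from RefSeq (GRCm38.p6), which held 18898 of 18946 IDs.

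FPKM keep no read totals, so no counting interval or detection limit was computed. For relative depth, the lowest value above 0 among microRNA and small nucleolar RNA genes of a given length was divided into that of con replicate 1. The median over 33 lengths was taken, and 12 or more lengths in each library fell within 2% of it.

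The test was limma's (version 3.58.1, R 4.3.3), 2-sided, with an intensity trend, of log2(FPKM + 1) in all 6 libraries, with terms for group and table. Residual degrees of freedom were 2, and the prior added a median of 3.82. Genes needed FPKM 1 or more in 2 or more libraries. The log2 scale with a pseudocount of 1 understates changes of low genes. The fit was tested on simulated data. The table stood in the model because each replicate number had its own table. Deviations from group means of same-numbered libraries correlated at 0.236 (CTdel and ICN), 0.326 (CTdel and con) and -0.0988 (ICN and con).

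The members and lists were chosen with earlier results of these data known. Named were all members, Notch1, list genes that passed (otherwise the 2 with the smallest p per list), markers, and the 3 genes most like the leading member of each class. Alternatives covered the table term, pseudocount, filter, scaling and each library left out. Where a group is left with 1 library, it is assumed to vary like the others.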

Additional observations from a re-analysis of the deposited data

How the results depend on the processing

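Of 352 receptor changes recomputed under 11 alternatives, 316 kept their direction and their side of the threshold, 14 gained and 8 lost a call, and 14 changed sign. Of 407 changes of the pathway genes, Notch1 and Cpa3, 312 kept both, 70 gained and 23 lost a call, and 2 changed sign. With no filter on low genes 0 genes passed in any comparison (limma, 16799 genes, with 2328 at an unadjusted p under 0.05 in ICN, 1592 in CTdel, 1386 in CTdel against ICN and 2098 in both forms) and 0 receptors. Quantile normalization left 0 receptors in CTdel and 0 in both forms, and a pseudocount of 0.1 left 0 genes in CTdel against ICN, with 744 at an unadjusted p under 0.05. The causes were not tested. Without the replicate block, in a model of groups alone, 3, 130, 2 and 132 genes passed (ICN, CTdel, CTdel against ICN, both forms), against 4, 156, 2 and 123, and the receptors called were the same number, 0, 1, 0 and 1. With 1 library left out, receptors called ran from 0 to 1 in ICN, from 0 to 4 in CTdel, stayed 0 in CTdel against ICN and ran from 0 to 4 in both forms. Genes called ran from 11 to 1470 in ICN, 109 to 731 in CTdel, 2 to 891 in CTdel against ICN and 48 to 1240 in both forms. The highest counts came without an ICN library, and most of the gained receptor calls came there. A CTdel change against con does not move when an ICN library is left out. A call that it gains there reflects only the estimated spread of the libraries.

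Changes of sign all came from leaving out a library and concerned values that did not pass. In ICN, Ccr1 ran from -0.23 to 0.18, Ccr2 from -1.03 to 0.16 and Cd44 from -0.57 to 0.31. In CTdel, Ccr2 ran from -1.13 to 0.0552 and Cd44 from -0.19 to 0.69. In CTdel against ICN, Ccr2 ran from -0.67 to 0.46, Ccr7 from -0.15 to 0.47 and Cd44 from -0.0314 to 0.79. In both forms, Ccr2 ran from -1.08 to 0.11, Cd44 from -0.38 to 0.50 and Cxcr2 from -0.0795 to 0.0075. With no read totals, the reads behind low genes such as Ccr7, S1pr1 and Esam are unknown.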
